A study of Mus musculus with 15 samples.

Results

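Antigen-presenting cells show peptides to CD4+ T cells on MHC class II molecules and add a costimulatory signal through CD80, CD86 and CD40. The 10 genes described here cover both steps. They were chosen by symbol, as the rows of the deposited table of gene counts whose mouse Ensembl identifier carries the name *H2-Aa*, *H2-Ab1*, *H2-Eb1*, *Cd74*, *H2-DMa*, *H2-DMb1*, *Ciita*, *Cd80*, *Cd86* or *Cd40*. They are 10 of 55487 genes listed. All 10 were among the 19006 genes tested, which reached 10 counts in 5 or more libraries.

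An MHC class II molecule is a pair of an α and a β chain. *H2-Aa* and *H2-Ab1* encode the chains of I-A, and *H2-Eb1* encodes the β chain of I-E. *Cd74* encodes the invariant chain, which holds the peptide groove during transport, and *H2-DMa* and *H2-DMb1* encode the DM molecule, which exchanges the remaining invariant chain fragment for antigen peptide. *Ciita* encodes the coactivator that is required for transcription of these genes; it does not bind DNA itself but joins a complex on the X and Y boxes of class II promoters. CD80 and CD86 on the presenting cell bind CD28 and CTLA-4 on T cells, and CD40 receives the signal of CD40 ligand from activated T cells. Dendritic cells, B cells and macrophages are the main carriers of these genes, and IL-4 and IFN-γ are known inducers of several of them.

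RNA-Seq was performed on conjunctival tissue of wild-type female BALB/c mice (spelled BALC/c in the sample labels), aged 9 to 12 weeks according to the methods. All animals, the PBS-challenged controls included, had been sensitized through the skin of the ear with OVA and with MC903 (calcipotriol, a vitamin D analog that inflames skin; 2.5 nmol per day for 7 days). The eyes then received drops once a day for 7 days, up to day 24: PBS in the first group (PBS group), for which the labels name no antibody, and OVA in the others, which were given an isotype control antibody (isotype group) or an antibody that blocks the IL-4 receptor α chain (anti–IL-4Rα group); both antibodies were dosed at 25 mg/kg. Each group had 5 libraries. Each sample title holds the word Mouse with a letter and a number, but that each library is a separate mouse is not stated. The p-values therefore set the differences between groups against the spread between these libraries. No group analysed here went without skin sensitization or received OVA drops without an antibody.

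*H2-Aa* (ENSMUSG00000036594), *H2-Ab1* (ENSMUSG00000073421), *H2-Eb1* (ENSMUSG00000060586), *H2-DMa* (ENSMUSG00000037649) and *H2-DMb1* (ENSMUSG00000079547) lie together on chromosome 17 of GRCm38, between the start of *H2-DMa* at 34119541 and the end of *H2-Eb1* at 34316674. *Ciita* (ENSMUSG00000022504; 10480059 to 10528418), *Cd86* (ENSMUSG00000022901; 36603869 to 36666081) and *Cd80* (ENSMUSG00000075122; 38455561 to 38496335) are all on chromosome 16, and *Cd40* (ENSMUSG00000017652; 165055627 to 165072948) is on chromosome 2. *H2-DMa* overlaps *Brd2* and *Ciita* overlaps *Dexi*, each a gene of the opposite strand with a median of 233 CPM and 34.7 CPM (counts of a gene per 1000000 in its TMM-normalized library). The library kit keeps the strand, but whether the counting used it is not stated, so reads of the overlapping stretches may be shared. The reads of BALB/c mice were mapped to a reference genome of another mouse strain with other class II alleles, which may lower the counts of the polymorphic chains in all 3 groups alike; this was not tested.

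The promoters of the chain genes *H2-Aa* and *H2-Eb1* are shown because the complex joined by CIITA is assembled on boxes of class II promoters. That of *Cd80* is shown because it belongs to a gene that changed. Each line gives the 250 bases before the transcription start, 5′ to 3′ on the strand of the gene, from RefSeq on GRCm38.p6, with matches to the X1 box core AGCAACNG or the Y box core GATTGG on either strand in capitals. *H2-Aa* is taken from chr17:34287824-34288073 (minus strand), *H2-Eb1* from chr17:34305617-34305866 (plus strand) and *Cd80* from chr16:38458683-38458932 (plus strand). The *Cd80* stretch lies inside the gene as positioned above (38455561 to 38496335), and the bases before that first position were not searched.
H2-Aa: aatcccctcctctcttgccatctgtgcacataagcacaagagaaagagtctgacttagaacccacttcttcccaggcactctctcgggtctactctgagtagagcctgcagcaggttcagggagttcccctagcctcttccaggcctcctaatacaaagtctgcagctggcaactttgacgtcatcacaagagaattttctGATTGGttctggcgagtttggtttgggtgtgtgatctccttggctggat
H2-Eb1: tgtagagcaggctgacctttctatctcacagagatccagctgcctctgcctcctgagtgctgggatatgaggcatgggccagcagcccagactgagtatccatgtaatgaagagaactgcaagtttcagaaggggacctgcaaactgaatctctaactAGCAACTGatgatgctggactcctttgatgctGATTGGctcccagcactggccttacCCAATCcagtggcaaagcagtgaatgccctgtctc
Cd80: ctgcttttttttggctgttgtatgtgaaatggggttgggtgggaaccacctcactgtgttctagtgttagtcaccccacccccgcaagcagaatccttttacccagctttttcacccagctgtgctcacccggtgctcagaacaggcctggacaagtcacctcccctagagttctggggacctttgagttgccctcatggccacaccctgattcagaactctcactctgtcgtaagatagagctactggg

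The RefSeq table held 5 of the 10 genes: those printed, *H2-DMa* and *H2-DMb1*. *H2-Eb1* had an X1 core at bases -92 to -85 from the start and a Y box core at -60 to -55, with a further Y box core on the opposite strand at -35 to -30. A Y box core stood at -49 to -44 in *H2-Aa*, at -62 to -57 in *H2-DMb1* and at -199 to -194 from the second listed start of *H2-DMa*. The *Cd80* stretch shown held neither core. Of all 32851 promoters in the table, 14.6% held the Y box core, 4.14% the X1 core and 0.177% both within 40 bases. None of the 5 genes matched the palindrome TTCNNNNGAA (5.85% of promoters), which is of the type bound by STAT6, or GAAANNGAA (7.13%), of the type bound by interferon regulatory factors. A match is a description of the letters, and a sequence without a match may still hold a variant of the box.

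The libraries held 48622246 to 87745024 counts each. Markers of conjunctival epithelium were present, as labelled, and the 7 of them summed to 3211 to 5652 CPM. Their levels differed widely. The goblet cell mucin *Muc5ac* had means of 1389 to 1745 CPM in the 3 groups, *Pax6* 81.9 to 110 CPM and *Muc16* 5.37 to 6.80 CPM. Genes of other tissues were also present. The 5 skeletal muscle markers summed to 3338 to 9633 CPM, the 5 meibomian gland markers to 1576 to 4088 and the 2 corneal epithelium markers to 408 to 1080. The 8 lacrimal acinar markers summed to 153 to 1016 CPM in the PBS group, 194 to 775 in the isotype group and 215 to 2986 in the anti–IL-4Rα group. Of these 8, *Dcpp1*, *Dcpp2* and *Dcpp3* had at most 1 count in any library. *Aqp5* gave 115 of the 153 CPM in PBS replicate 1 and 157 of the 215 CPM in anti–IL-4Rα replicate 3. Anti–IL-4Rα replicate 3 stood apart from its group, at 215 CPM of lacrimal markers against 1221 to 2986 in the other 4 libraries, and the comparisons of the 10 genes that use it are given below with and without it. Because whole tissue was sequenced, fewer cells of a type and less RNA per cell cannot be told apart.

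Per kilobase of exon, counting all annotated exons of a gene, the order of the 10 genes by mean level was the same in all 3 groups. The order depends on this length. By CPM alone, *H2-Aa* (127) stood above *H2-Eb1* (124) and *H2-Ab1* (106) in the PBS group, and *Ciita* (10.7) above *Cd86* (5.20). In the PBS group *Cd74* stood first at 310.2 ± 45.5 CPM per kilobase (SD, n = 5), followed by *H2-Eb1* at 63.9 ± 9.79, *H2-Ab1* at 41.5 ± 6.83 and *H2-Aa* at 33.5 ± 4.88; the ranges of the last pair overlapped. *H2-DMa* (6.50 ± 0.799) and *H2-DMb1* (6.27 ± 0.846) overlapped each other below them. *Cd86* (1.42 ± 0.117) overlapped *Ciita* (1.12 ± 0.203), and *Cd40* (0.284 ± 0.0493) overlapped *Cd80* (0.272 ± 0.0399). The same neighbors overlapped in the other groups, and *H2-Eb1* and *H2-Ab1* also did so in the anti–IL-4Rα group. The lowest single values were 41 counts for *Cd40* and 54 counts for *Cd80*, so that counting error is largest for these genes, while *Cd74* had at least 17252 counts in every library.

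**Figure D1:**
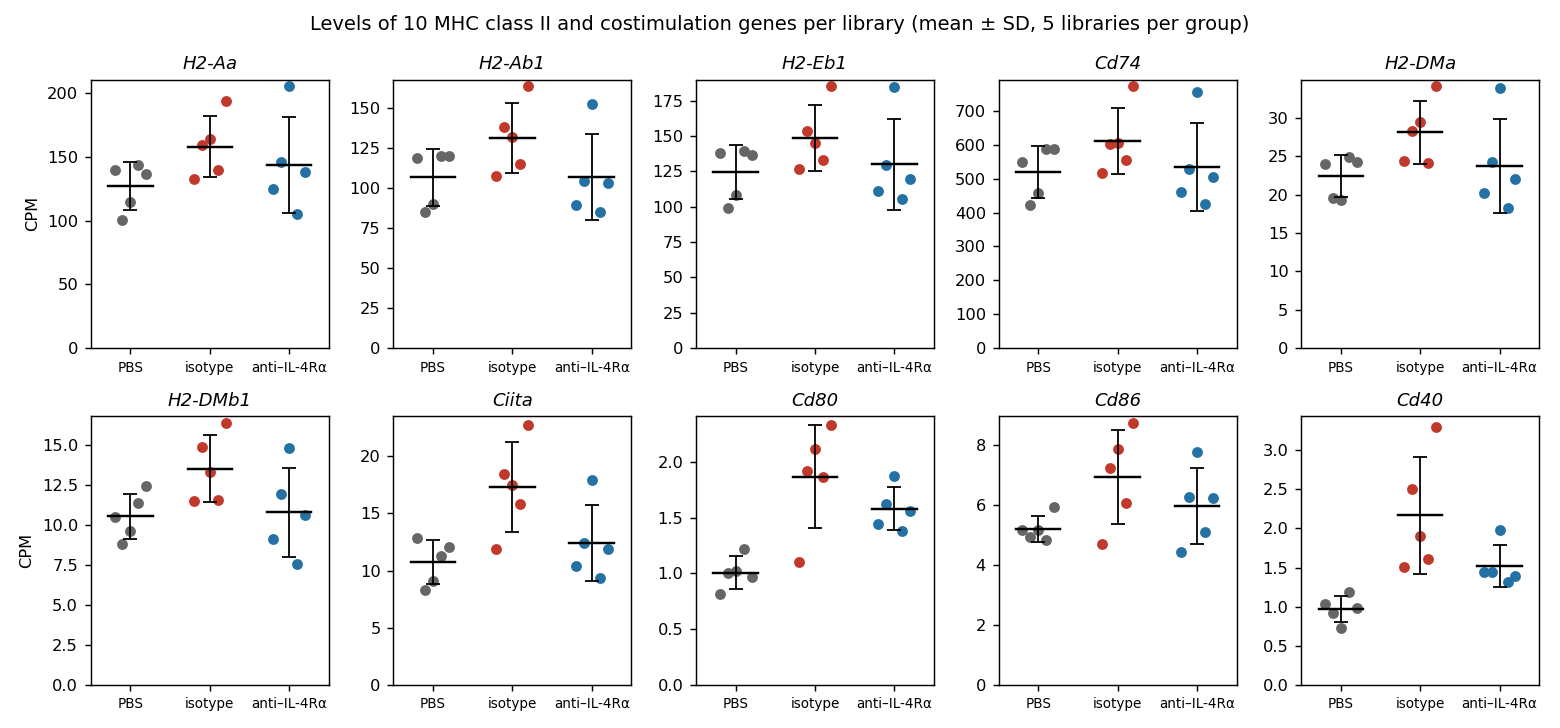
Level of each of the 10 genes in CPM (vertical axis, from 0) in every library of the PBS, isotype and anti–IL-4Rα groups; points are libraries in the order of their replicate numbers, and bars give the mean and SD of 5. *Cd40* is the single gene whose isotype libraries (1.51 to 3.30 CPM) all lie above the PBS libraries (0.725 to 1.19 CPM), and anti–IL-4Rα replicate 3 is the top point of its group in all 10 panels.

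The comparison of the isotype group with the PBS group asks what OVA drops, given with an isotype antibody, did in skin-sensitized mice. The labels name no antibody for the PBS group, so the drops and the antibody cannot be told apart. The costimulatory genes *Cd40* and *Cd80* and the class II coactivator *Ciita* rose, whereas none of the 6 genes of the class II chains, invariant chain and DM passed the test. Of the 10 genes, 3 were called higher at an adjusted p under 0.05 and 0 lower (edgeR's quasi-likelihood test, two-sided, Benjamini-Hochberg over 19006 genes); among all genes tested 9.53% were called higher. All 10 fold changes were above 0, with a median log2 fold change of 0.34 against -0.01 over all genes.

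*Cd40* had 1.03, 0.916, 0.725, 1.19 and 0.984 CPM in PBS replicates 1 to 5 and 1.51, 2.51, 1.90, 1.61 and 3.30 CPM in isotype replicates 1 to 5. The groups did not overlap, and isotype replicates 2 and 5 were highest. Its rise was 2.24-fold (log2 fold change 1.16, SE 0.21, adjusted p = 0.00428; errors of log2 values are SEs throughout), and an exact permutation test over the 252 assignments of 10 libraries gave its smallest possible two-sided p of 0.00794. *Cd40* was 1 of 10 genes whose isotype libraries all lay above the PBS libraries, which 6.85% of all genes tested did.

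*Cd80*, the B7 molecule that is induced late on activated presenting cells, had 0.811, 1.001, 1.03, 1.22 and 0.967 CPM in the PBS libraries and 1.10, 1.92, 2.12, 1.87 and 2.33 CPM in the isotype libraries. Isotype replicate 1 lay within the PBS range and the other 4 lay above it. The log2 fold change was 0.90 ± 0.18 (adjusted p = 0.00615), or 1.86-fold. *Cd40* and *Cd80* were called in each of 11 alternative fits and with each of the 15 libraries left out.

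*Ciita* had 12.9, 8.31, 9.11, 11.3 and 12.02 CPM in the PBS libraries and 11.9, 18.5, 17.5, 15.8 and 22.8 CPM in the isotype libraries. Here too isotype replicate 1 lay within the PBS range and the other 4 lay above it. The log2 fold change was 0.69 ± 0.19 (adjusted p = 0.0268), or 1.61-fold. The call did not hold without certain libraries: the adjusted p was 0.0670 without PBS replicate 2, 0.0603 without PBS replicate 3, 0.0571 without isotype replicate 2, 0.0560 without isotype replicate 3 and 0.0669 without isotype replicate 5, with log2 fold changes of 0.57 to 0.69. It was made in 8 of 11 alternative fits and not in the linear models on log2(FPKM + 1) (adjusted p = 0.0523) and log2(CPM + 1) (adjusted p = 0.0525) or with the replicate number as a block (adjusted p = 0.0584).

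*Cd86*, the B7 molecule that many presenting cells carry before activation, had 5.16, 4.92, 5.15, 4.84 and 5.92 CPM in the PBS libraries and 4.70, 7.21, 7.84, 6.06 and 8.72 CPM in the isotype libraries. Isotype replicate 1 was below every PBS library and the other 4 were above every PBS library. Its log2 fold change of 0.41 ± 0.16 did not pass the test (adjusted p = 0.0991; 95% interval of the fold 1.04 to 1.70), and it passed without isotype replicate 1 (adjusted p = 0.0252) and, of 11 alternative fits, by voom (adjusted p = 0.0368).

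*H2-Ab1* represents the class II genes. It had 119, 84.9, 89.7, 119.5 and 119.6 CPM in the PBS libraries and 107, 138, 132, 115 and 163 CPM in the isotype libraries, so that isotype replicates 1 and 4 lay within the PBS range. The log2 fold change was 0.30 ± 0.16 (adjusted p = 0.218), with a 95% interval of the fold of 0.967 to 1.57. *Cd74*, the most abundant of the 10, had 549.9, 421, 459, 587 and 587 CPM in the PBS libraries and 517, 602, 606, 556 and 774 CPM in the isotype libraries, a log2 difference of 0.23 ± 0.16 (adjusted p = 0.328; 95% interval of the fold 0.930 to 1.48).

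*H2-Aa* had a log2 difference of 0.31 ± 0.16 (adjusted p = 0.194), and *H2-Eb1*, the partner chain of I-E, had 0.26 ± 0.16 (adjusted p = 0.268). For the DM genes the values were 0.33 ± 0.15 for *H2-DMa* (adjusted p = 0.151) and 0.36 ± 0.16 for *H2-DMb1* (adjusted p = 0.140); *H2-DMb1* has a close paralog in *H2-DMb2*, between which reads could have been divided. Of these 6 genes, 2 had an unadjusted p under 0.05, both of DM, and 0 were called by edgeR, DESeq2, limma's voom with quality weights or the linear models on log2(FPKM + 1) and log2(CPM + 1). In each of the 6, 3 isotype libraries lay above every PBS library and the other 2 lay within the PBS range.

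**Figure D2:**
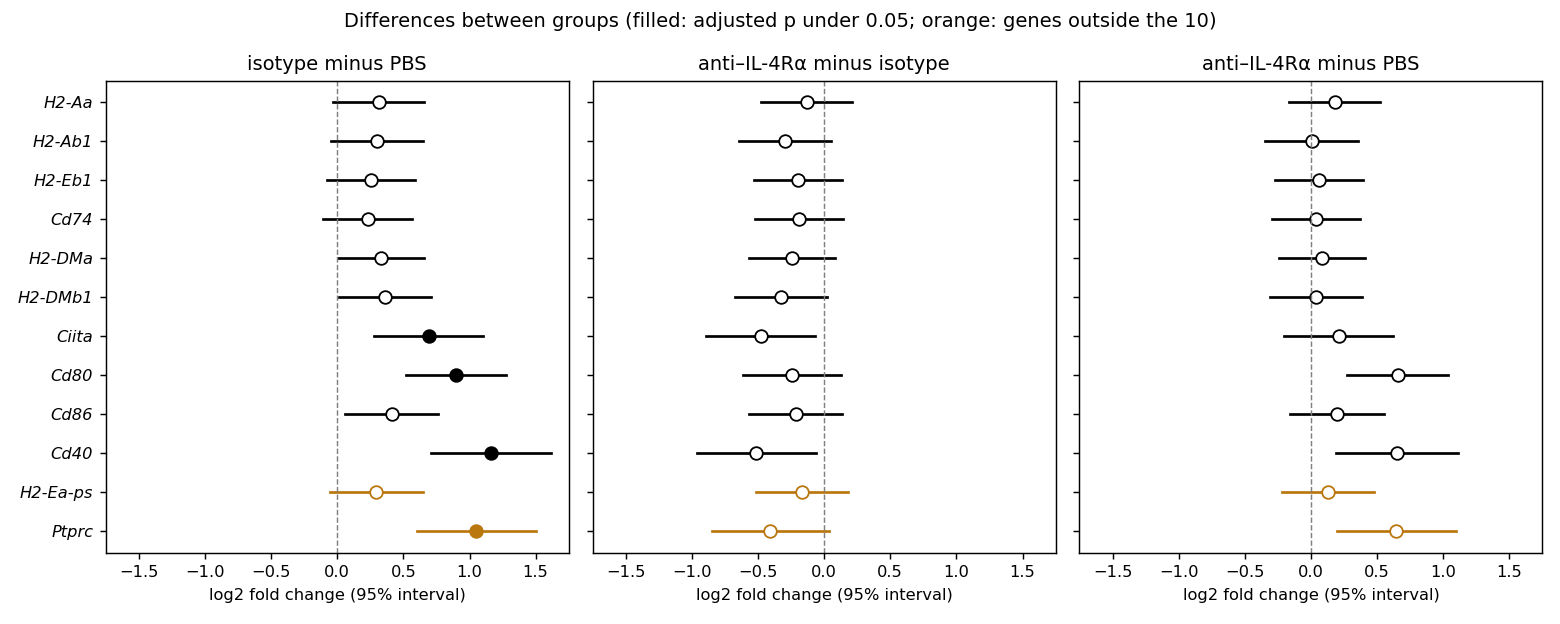
Log2 fold change (horizontal axis) with its 95% interval for the 10 genes, the class II pseudogene *H2-Ea-ps* and the leukocyte gene *Ptprc*, for each comparison (edgeR, 5 libraries per group); filled points had an adjusted p under 0.05. For isotype minus PBS, *Cd40* (1.16), *Cd80* (0.90), *Ciita* (0.69) and *Ptprc* (1.05) are filled, and in the other comparisons none is.

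*Ptprc*, which encodes CD45 and marks leukocytes as a whole, rose 2.07-fold between the same groups, from 21.1 ± 2.22 to 43.8 ± 12.2 CPM (log2 fold change 1.05 ± 0.21, adjusted p = 0.00657). Relative to *Ptprc* in the same library, 8 of the 10 genes were lower in every isotype library than in every PBS library, the exceptions being *Cd80* and *Cd40*; this was so of 68.4% of all genes tested, and is given as a description. *H2-Ab1* stood at 4.29 to 5.57 times the *Ptprc* level in the PBS libraries (median 5.13), at 2.67 to 3.86 in the isotype libraries (median 2.96) and at 2.87 to 4.02 in the anti–IL-4Rα libraries (median 3.19). *Cd40* stood at 0.0347 to 0.0523, 0.0394 to 0.0583 and 0.0398 to 0.0619 in the same order, ranges that overlapped throughout.

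**Figure D3:**
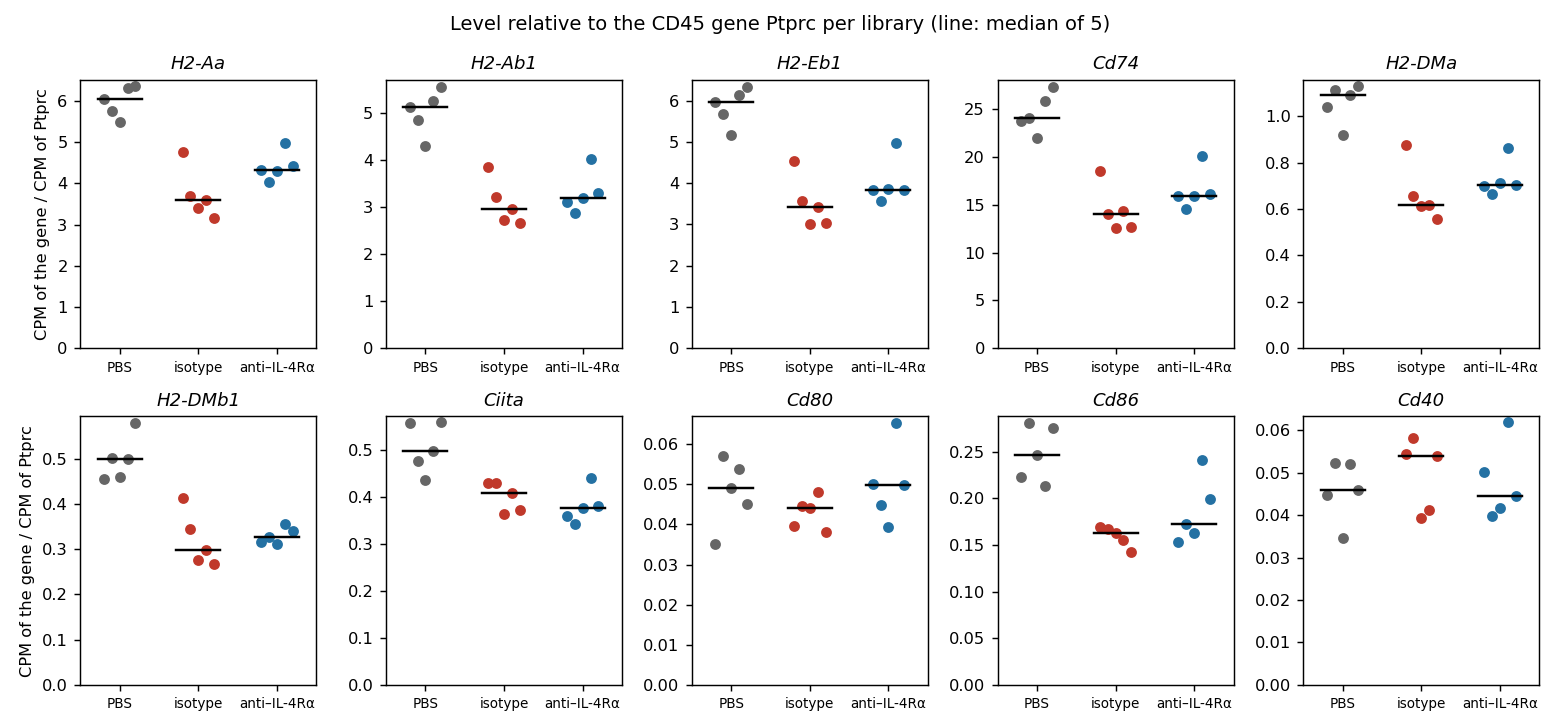
Ratio of each gene's CPM to the CPM of *Ptprc* in the same library (vertical axis, from 0) for the 3 groups; lines are medians of 5 libraries. The isotype points lie below the PBS points for 8 genes, as they do for 68.4% of all genes tested, and overlap them for *Cd80* and *Cd40*.

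Set against *H2-Ab1* instead, *Ciita* and *Cd40* were higher in every isotype library than in every PBS library, as were 1.79% of all genes tested. *Ciita* had 9.47 to 10.8% of the *H2-Ab1* CPM in the PBS libraries, 11.1 to 13.95% in the isotype libraries and 10.96 to 11.9% in the anti–IL-4Rα libraries. For *Cd40* the shares were 0.809 to 1.08%, 1.4 to 2.03% and 1.3 to 1.62% in the same order. *H2-Aa* had 114 to 128% of the *H2-Ab1* CPM in the PBS libraries, 115 to 125% in the isotype libraries and 124 to 140.4% in the anti–IL-4Rα libraries. For *H2-Eb1* the shares were 114 to 120.5%, 110.0 to 118% and 116 to 124%. Both chains thus had their highest median share under anti–IL-4Rα (135% and 124%, against 122% and 114% in the isotype group), with ranges that overlapped those of the other groups.

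The other genes of the pathway were read from lists. Of 4 further class II genes tested, 0 were called by edgeR (1 with an unadjusted p under 0.05; 0 by DESeq2 and by the linear models, 1 by voom), with a median log2 fold change of 0.32. *H2-Ea-ps*, the α chain gene of I-E, is annotated as a polymorphic pseudogene because some mouse strains do not express it; it was transcribed here, with 121 ± 18.7 CPM under PBS challenge and 149 ± 24.5 CPM under OVA challenge with isotype (log2 difference 0.30 ± 0.16, adjusted p = 0.223). *H2-DMb2* had a log2 difference of 0.34 ± 0.14 (adjusted p = 0.110).

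Of 5 genes that process antigen or the class II molecule itself, 4 were called higher (median 0.75). *Ctss*, which encodes cathepsin S, the protease that degrades the invariant chain in presenting cells, rose from 49.1 ± 4.51 to 116.6 ± 36.8 CPM (log2 fold change 1.25 ± 0.20, adjusted p = 0.00228), and *Lgmn*, which encodes the asparagine endopeptidase legumain, rose by 1.20 ± 0.19 (adjusted p = 0.00201). Among 7 factors of the promoter complex, 1 was called higher (median -0.03), the CREB gene *Creb1* at 0.15 ± 0.04 (adjusted p = 0.0324); the linear models called 0 of the 7 and DESeq2 2. *Nfya*, a subunit of the Y box factor NF-Y, had 0.12 ± 0.05 (adjusted p = 0.0752).

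Of 12 tested partners and relatives of B7 and CD40, 4 were called higher by edgeR and 7 by DESeq2 and by voom (median 0.67). *Pdcd1lg2*, which encodes PD-L2, a ligand of the inhibitory receptor PD-1, rose from 0.425 ± 0.114 to 2.06 ± 1.07 CPM (log2 fold change 2.27 ± 0.38, adjusted p = 0.00255), with no overlap of the groups. *Tnfrsf9*, the costimulatory receptor 4-1BB, rose by 1.61 ± 0.27 (adjusted p = 0.00253). MHC class I presentation genes were called higher in 4 of 9 (median 0.31), including the heavy chain genes *H2-K1* (0.34 ± 0.09, adjusted p = 0.0243) and *H2-D1* (0.31 ± 0.09, adjusted p = 0.0321) and the immunoproteasome gene *Psmb8* (0.41 ± 0.12, adjusted p = 0.0368); the linear models called 1 of the 9 and the fit with the replicate block 0. Of 9 tested genes of cytokine signaling (cytokines, receptors, STATs, *Irf1* and *Socs1*), 5 were called higher (median 0.73). Among them were *Il13* (1.30 ± 0.27, adjusted p = 0.00717), *Il4ra* (0.74 ± 0.22, adjusted p = 0.0342) and *Socs1*, which encodes a suppressor of cytokine signaling (0.81 ± 0.16, adjusted p = 0.00647).

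Markers of the cells that carry class II moved in the same comparison. Macrophage markers were called higher in 8 of 9 (median 1.04; *C1qb* 1.20 ± 0.17, adjusted p = 0.00103), and their summed level was 393 to 416 CPM in the PBS libraries and 515 to 1111 in the isotype libraries. Dendritic cell markers were called higher in 6 of 12 and lower in 1, the Langerhans cell gene *Cd207* (median 0.74; *Irf8* 1.11 ± 0.16, adjusted p = 0.00103; *Batf3* 1.46 ± 0.21, adjusted p = 0.00126), with sums of 90.1 to 112 and 115 to 196 CPM. T cell markers were called higher in 4 of 6 (median 1.12; *Cd8a* 1.56 ± 0.24, adjusted p = 0.00176; *Cd4* 1.70 ± 0.32, adjusted p = 0.00506; sums of 8.98 to 13.3 and 13.97 to 31.1 CPM). The other T cell calls were *Cd8b1* and *Cd3d*. B cell markers were called in 1 of 6, *Cd22* (2.07 ± 0.42, adjusted p = 0.00694), at sums of 1.69 to 4.88 and 5.12 to 8.76 CPM. All 5 skeletal muscle markers were called lower (median -0.71; *Ckm* -0.82 ± 0.18, adjusted p = 0.00982). None of these marker lists was at 0 in a group, and the part of cell composition in the changes of the 10 genes was not tested.

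**Figure D4:**
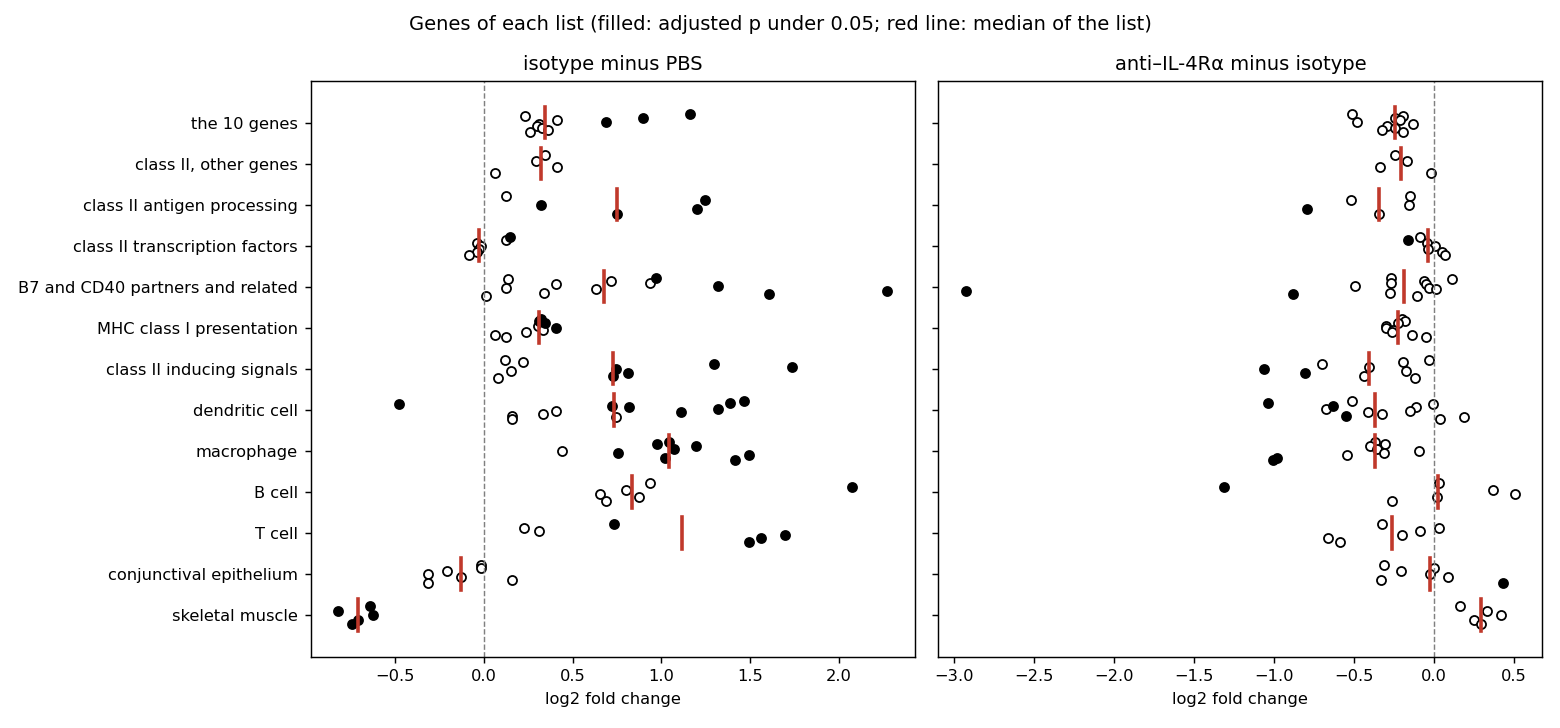
Log2 fold change (horizontal axis) of the 10 genes and of the tested genes of the lists drawn, for isotype minus PBS (left) and anti–IL-4Rα minus isotype (right). The lacrimal acinar, meibomian gland and corneal epithelium markers and *Ptprc* are not drawn. Filled points had an adjusted p under 0.05 (edgeR) and red lines are list medians. On the left the median is 0.34 for the 10 genes, 1.04 for macrophage and 1.12 for T cell markers, and on the right the point farthest left is *Pdcd1lg2* at -2.93.

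The comparison of the anti–IL-4Rα group with the isotype group asks what blocking the receptor did under OVA challenge; both comparisons use the same isotype libraries. All 10 genes had fold changes below 0 (median log2 fold change -0.24 against 0.01 over all genes), but 0 of the 10 passed the edgeR test, while 8.13% of all genes tested were called lower. An unadjusted p under 0.05 was found for 2 of them, *Ciita* and *Cd40*; DESeq2 and the linear models called 0, and voom called 1, *Ciita* (adjusted p = 0.0287). In 0 of the 10 did the anti–IL-4Rα libraries all lie below the isotype libraries, as they did in 4.96% of genes.

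*Cd40* had 1.45, 1.45, 1.98, 1.31 and 1.39 CPM in anti–IL-4Rα replicates 1 to 5. All but replicate 3 were below the lowest isotype library, and the log2 difference was -0.51 ± 0.21 (adjusted p = 0.108). *Ciita* had 10.4, 12.4, 17.9, 9.31 and 11.9 CPM, of which replicates 1, 4 and 5 were below every isotype library, and its log2 difference was -0.48 ± 0.19 (adjusted p = 0.102). *Cd80* had 1.45, 1.63, 1.88, 1.38 and 1.56 CPM, all within the isotype range (-0.24 ± 0.17, adjusted p = 0.344; 95% interval -0.61 to 0.13). *Cd86* had 4.43, 6.25, 7.74, 5.09 and 6.24 CPM (-0.21 ± 0.16, adjusted p = 0.377; 95% interval -0.57 to 0.14).

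*H2-Ab1* had 89.5, 104, 152, 85.0 and 103 CPM, with 4 libraries below every isotype library and replicate 3 near the highest of them. Its log2 difference was -0.30 ± 0.16 (adjusted p = 0.219). *Cd74* had 459.5, 528, 756, 426 and 504 CPM (-0.19 ± 0.16, adjusted p = 0.404), and *H2-Aa* had 125, 146, 205, 105 and 138 CPM (-0.13 ± 0.16, adjusted p = 0.586). *H2-Eb1* had -0.19 ± 0.16, *H2-DMa* -0.24 ± 0.15 and *H2-DMb1* -0.32 ± 0.16, with adjusted p-values of 0.395, 0.275 and 0.181.

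Leaving out replicate 3 changed 4 of these results. Without it, edgeR called 2094 of the 18915 genes tested lower, against 1546 of 19006 with it. Of the 10 genes, 4 were then called lower: *Ciita* (-0.65, adjusted p = 0.0192), *H2-Ab1* (-0.46, adjusted p = 0.0305), *H2-DMa* (-0.41, adjusted p = 0.0283) and *H2-DMb1* (-0.46, adjusted p = 0.0386), and *Ptprc* moved from -0.41 (adjusted p = 0.187) to -0.58 (adjusted p = 0.0506). The other 6 were still not called, with -0.63 for *Cd40* (adjusted p = 0.0526), -0.35 for *H2-Eb1* (adjusted p = 0.0597), -0.35 for *Cd74* (adjusted p = 0.0674), -0.30 for *H2-Aa* (adjusted p = 0.126), -0.33 for *Cd86* (adjusted p = 0.157) and -0.31 for *Cd80* (adjusted p = 0.232). With replicate 3 kept, *Ciita* also passed without isotype replicate 1 (adjusted p = 0.0400). The isotype group still had 3 of the 10 genes called against the PBS group without replicate 3, and the anti–IL-4Rα group 0. With the lacrimal acinar score of each library (the mean log2 CPM of its lacrimal markers, centered over all libraries) as a covariate and all libraries kept, 0 of the 10 were called. The score was 1.97 to 2.68 in the anti–IL-4Rα libraries other than replicate 3 and at most 1.39 in the PBS and isotype libraries. It includes *Lcn11*, which the study reports as increased after anti–IL-4Rα treatment. This fit therefore separates the score from the antibody poorly. Replicate 3 had the lowest lacrimal sum of its group and the highest level of all 10 genes. The sum of each library was set beside the number of the 10 genes above the group mean. In the anti–IL-4Rα group, sums of 215, 1221, 1992, 2875 and 2986 CPM went with 10, 8, 0, 0 and 2 genes. In the isotype group, 194, 260, 423, 570 and 775 CPM went with 9, 10, 7, 1 and 0 genes. In the PBS group, 153, 179, 227, 272 and 1016 CPM went with 8, 1, 1, 9 and 9 genes. The part of lacrimal tissue in the levels was not tested.

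**Figure D5:**
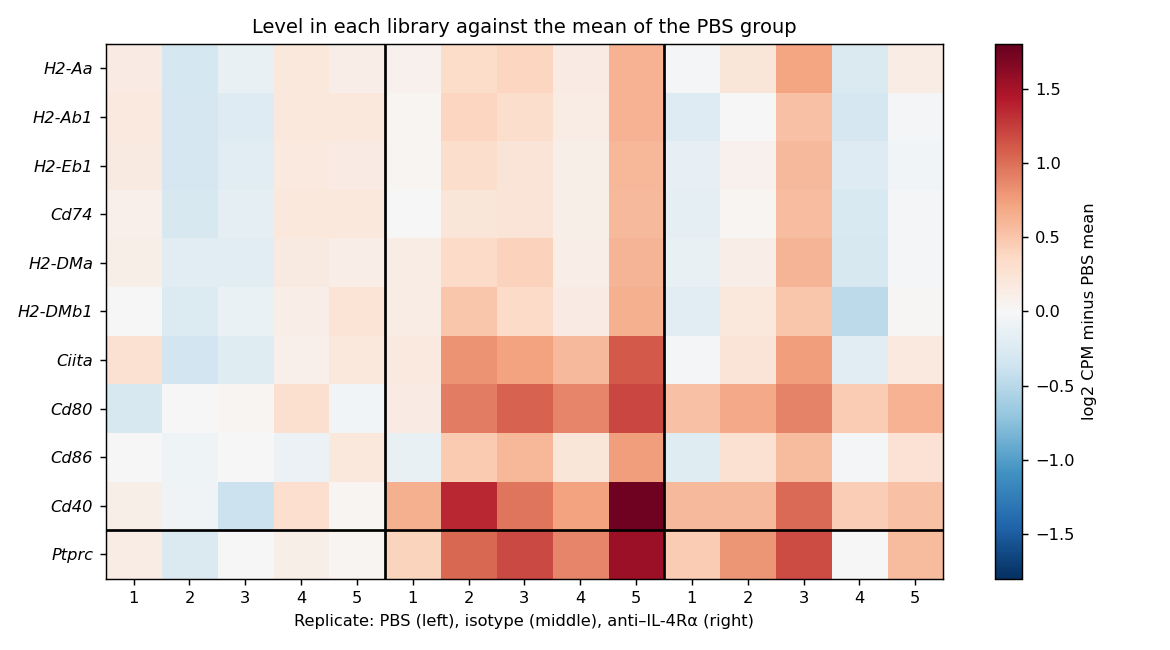
Log2 CPM of the 10 genes and *Ptprc* in each library minus the mean of the PBS group (color scale), with libraries in columns by group and replicate number. Isotype replicate 5 and anti–IL-4Rα replicate 3 are the reddest columns of their groups, and isotype replicate 1 is the palest of its group.

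Several genes around the 10 were called lower with anti–IL-4Rα. *Pdcd1lg2* fell by 2.93 ± 0.40 on the log2 scale (adjusted p = 0.00121), to 0.261 ± 0.116 CPM, with every anti–IL-4Rα library below every isotype library, and *Tnfrsf9* fell by 0.88 ± 0.26 (adjusted p = 0.0392); they were 2 of 12 partners called (median -0.19). *Il4ra*, which encodes the blocked receptor chain itself, fell by 1.06 ± 0.22 (adjusted p = 0.0119), from 107 ± 33.4 to 51.4 ± 14.8 CPM. *Socs1* fell by 0.80 ± 0.16 (adjusted p = 0.00993). *Il4ra* and *Socs1* were the 2 genes called of 9 cytokine signaling genes (median -0.41). Of the 5 processing genes 1 was called, *Lgmn*, which fell by 0.80 ± 0.19 (adjusted p = 0.0185; median of the list -0.35), while *Ctss* had -0.52 ± 0.20 (adjusted p = 0.0912). *Nfya* fell by 0.17 ± 0.05 (adjusted p = 0.0296), the only call among 7 promoter factors (median -0.04). Of 9 class I genes 0 were called by edgeR, DESeq2 and the linear models and 5 by voom (3 had an unadjusted p under 0.05; median -0.22), but without anti–IL-4Rα replicate 3 edgeR called 7, among them *Psmb8* (-0.44, adjusted p = 0.00523) and *H2-K1* (-0.32, adjusted p = 0.00775). Of 4 further class II genes 0 were called by any of these tools (0 with an unadjusted p under 0.05; median -0.21), and 1 without replicate 3.

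Among the cell type lists, macrophage markers were called lower in 2 of 9 (median -0.37), including the mannose receptor gene *Mrc1* (-1.01 ± 0.23, adjusted p = 0.0150). Dendritic cell markers were called lower in 3 of 12 (median -0.37), including *Ccr7*, the receptor that guides migrating dendritic cells to lymph nodes (-1.04 ± 0.25, adjusted p = 0.0206), and *Mgl2* (-0.55 ± 0.14, adjusted p = 0.0249). T cell markers had a median of -0.26 with 0 of 6 called by edgeR or the linear models and 1 by DESeq2 and by voom (1 with an unadjusted p under 0.05), and B cell markers had 1 of 6 called, *Cd22* (-1.32 ± 0.41, adjusted p = 0.0451). The 5 lacrimal markers tested were all higher (median 2.48), with 1 called, *Aqp5* (0.48 ± 0.15, adjusted p = 0.0444).

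Most calls in these lists were not made with the lacrimal score as a covariate, a fit that separates the score from the antibody poorly. Over all genes, the covariate took the calls from 2826 to 453 in this comparison and from 3235 to 4695 for isotype against PBS. With the score as a covariate *Pdcd1lg2* (adjusted p = 0.00736) and *Socs1* (adjusted p = 0.0447) were still called. *Il4ra* (adjusted p = 0.0558), *Tnfrsf9* (0.197), *Lgmn* (0.0926), *Nfya* (0.145), *Mrc1* (0.0672), *Ccr7* (0.0886), *Mgl2* (0.0687) and *Cd22* (0.189) were not, each with a log2 difference still below 0. The counts were then 1 of 12 partners, 1 of 9 cytokine signaling genes and 1 of 9 macrophage markers. They were 0 in the processing, promoter factor, dendritic cell, B cell and T cell lists. Without anti–IL-4Rα replicate 3 all 10 genes just named were called. The calls came to 6 of 12 dendritic cell markers, 4 of 9 cytokine signaling genes, 3 of 12 partners and 2 of 5 processing genes.

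The anti–IL-4Rα group was also set against the PBS group, which asks what remained of the response under blockade; the PBS libraries are those of the first comparison. Every anti–IL-4Rα library lay above every PBS library in *Cd80* and *Cd40*, while the class II genes were at most 0.18 higher on the log2 scale. Of the 10 genes, 0 passed the edgeR test, and 2.28% of all genes tested were called higher. An unadjusted p under 0.05 was found for 2, *Cd80* and *Cd40*; DESeq2 called both (adjusted p = 0.00994 and 0.0452), voom called *Cd80* (adjusted p = 0.0425) and the linear models called 0.

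The log2 difference was 0.66 ± 0.18 for *Cd80* (adjusted p = 0.0543), with 0.811 to 1.22 CPM in the PBS group and 1.38 to 1.88 CPM in the anti–IL-4Rα group. For *Cd40* it was 0.65 ± 0.21 (adjusted p = 0.0927), with 0.725 to 1.19 CPM and 1.31 to 1.98 CPM. These 2 of 10 genes did not overlap between the groups, against 2.98% of all genes tested, and the exact permutation test gave its smallest possible p of 0.00794 for each. *Cd80* was called without isotype replicate 1 (adjusted p = 0.0211), a library that enters this comparison through the shared estimate of the spread. Without anti–IL-4Rα replicate 3 the difference was 0.58 for *Cd80* (adjusted p = 0.0625) and 0.53 for *Cd40* (adjusted p = 0.139).

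*Ciita* had a log2 difference of 0.21 ± 0.19 (adjusted p = 0.555; 95% interval -0.20 to 0.62) and *Cd86* 0.20 ± 0.17 (adjusted p = 0.513; 95% interval -0.16 to 0.55). *H2-Ab1* had 0.00 ± 0.16 (adjusted p = 0.992), with a 95% interval of -0.34 to 0.35 that leaves room for a change in either direction. The other 5 class II genes had differences of 0.04 to 0.18, with adjusted p-values of 0.545 to 0.924. Without anti–IL-4Rα replicate 3, *Ciita* had 0.04, *Cd86* 0.08, *H2-Aa* 0.02 and *H2-Ab1* -0.16, and 0 of the 10 genes were called. *Ptprc* stood at 33.0 ± 9.82 CPM, 0.65 ± 0.21 above the PBS group on the log2 scale (adjusted p = 0.0870).

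Markers of other cells moved in this comparison too. Macrophage markers were called higher in 3 of 9 (median 0.67; *C1qb* 0.79 ± 0.17, adjusted p = 0.0289), dendritic cell markers in 2 of 12 (median 0.30), namely *Irf8* (0.70 ± 0.16, adjusted p = 0.0324) and *Batf3* (0.95 ± 0.21, adjusted p = 0.0336), and T cell markers in 1 of 6 (median 0.66), *Cd4* (2.82-fold, adjusted p = 0.0303). The linear models called 0 in these 3 lists. The 5 lacrimal markers had a median of 2.72 with 1 called, *Aqp5* (0.61 ± 0.15, adjusted p = 0.0398). With the lacrimal score as a covariate 1 dendritic cell marker and 0 macrophage or T cell markers were called, but the score separates poorly from the group here too. The part of these cells in the values of *Cd80* and *Cd40* was not tested.

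Within the groups the 10 genes rose and fell together from library to library. Isotype replicate 5 and anti–IL-4Rα replicate 3 had all 10 genes above their group mean (median differences of 0.34 and 0.53 on the log2 scale), whereas isotype replicate 1 and anti–IL-4Rα replicates 1 and 4 had 0 of 10 above it. With log2 CPM centered within the groups, Pearson's r over the 15 libraries was 0.92 to 0.99 between the 6 class II genes, which share their libraries and the tissue composition of each. *Ciita* correlated with the 6 at 0.90 to 0.97, *Cd40* at 0.74 to 0.82, *Cd86* at 0.74 to 0.79 and *Cd80* at 0.53 to 0.58; *Ptprc* did so at 0.86 to 0.92. The counting error of *Cd80* and *Cd40*, with 41 to 245 counts per library, lowers what their r can reach.

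The genes whose pattern was most like that of *H2-Ab1* by the same measure were *H2-Ea-ps* (r = 0.99), *Sept3* (0.96), *Napsa* (0.96), *Fgd2* (0.94) and the T cell receptor subunit gene *Cd3e* (0.94). Those most like *Ciita* were *Myo1g* (0.97), *Kcnab2* (0.96), *H2-Ea-ps* (0.96), *Cytip* (0.95) and *Itgae*, which encodes the CD103 integrin chain (0.94). For *Cd86* they were *Rin3* (0.95), *Gpsm3* (0.95), *Lilra6* (0.93), *Gpr171* (0.92) and *Arrb2* (0.92). *Cd40* was most like *Mbip* (0.95), *Olfm1* (0.89), the granzyme gene *Gzmb* (0.88), *Fgr* (0.88) and *Ccdc88a* (0.87). The only gene in more than 1 of these 4 sets was *H2-Ea-ps*, shared by *H2-Ab1* and *Ciita*.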

How the data were processed

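RNA of conjunctival tissue was extracted, and libraries were made with a stranded mRNA kit, per the labels. According to the methods, the authors used Omicsoft Array Studio to place quality-filtered read pairs at unique positions of the B38 mouse genome under Ensembl gene models; the software version, the counting method and the strand setting are not given in the sources used here. The table that the authors deposited holds estimated counts (expected counts) of reads per gene, which were made by this mapping and not scaled for depth. Fractional values occurred in 6222 to 8005 genes of each library, and every value was rounded before the tests. Groups came from the sample labels, with 5 libraries each and totals of 48622246 to 87745024.

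Names, positions and exon lengths came from GENCODE M21 for GRCm38, with 55227 of 55487 identifiers matched. Genes reaching 10 counts in 5 or more libraries entered edgeR 4.0.16 with TMM normalization (quasi-likelihood test, a single model with a term per group, all 15 libraries; R 4.3.3), with Benjamini-Hochberg adjustment over 19006 genes and calls at an adjusted p under 0.05. The log2 CPM used a prior count of 2. Single genes were also compared by exact permutation tests over 252 assignments. The alternatives were upper quartile factors, DESeq2 1.42.0, limma 3.58.1 (voom with quality weights), linear models on log2(FPKM + 1) and log2(CPM + 1), robust estimation, other filters, a fit to the 2 groups compared, a replicate block, a lacrimal score as a covariate, other thresholds and leaving out each library. The linear model on log2(FPKM + 1) with upper quartile scaling takes its scale from the study's methods, which mention 2 outliers without naming them; all 15 libraries were kept here. The count test was used for the main values because the files hold counts. The steps were tested on simulated data. Python 3.11.15 was used with pandas 2.3.3, scipy 1.17.1 and matplotlib 3.10.9.

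The 10 genes and all lists were chosen with earlier results of these data known. Of each list, the text names the 2 genes with the smallest p for isotype against PBS and the 2 for anti–IL-4Rα against isotype; *Cd207* was named after its values were seen, and some named results are not reported here. Likeness to *H2-Ab1*, *Ciita*, *Cd86* and *Cd40* was ranked by Pearson's r of log2 CPM centered within groups. The ratios to *Ptprc* and *H2-Ab1* were chosen after the levels had been seen, and each library left out is named where it changed a call. Motifs were searched on both strands of the 250 bases before each start in RefSeq promoters of GRCm38.p6. The same replicate numbers in different groups did not deviate together (correlations of -0.38 to 0.45), so the main test was not paired.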

Additional observations from a re-analysis of the deposited data

Results flagged for a closer look

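Anti–IL-4Rα replicate 3 lay far from the other 4 libraries of its group in 2 of the 30 sets of 5 libraries checked, 3 groups for each of the 10 genes. *H2-Ab1* stood at 152 CPM there, with the next library at 104 CPM and a gap of 0.71 of the group's whole range. *Cd40* stood at 1.98 CPM, with the next library at 1.45 CPM and a gap of 0.79 of the range. Chance alone flags about 1 in 20 such sets. The library had the highest level of its group for all 10 genes and 215 CPM of lacrimal acinar markers, against 1221 to 2986 CPM in the others; whether these values are linked was not tested.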

How the results depend on the processing

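For isotype against PBS, 3 of the 10 genes were called, 2 to 4 under the alternatives and 2 to 4 with a library left out. For anti–IL-4Rα against isotype, 0 were called, 1 by voom and 0 to 4 with a library left out. For anti–IL-4Rα against PBS, 0 were called, 2 at an adjusted p under 0.1, 2 by DESeq2, 1 by voom, 1 in the fit to the 2 groups and 0 to 1 with a library left out.

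Over all genes, isotype against PBS gave 3235 calls, 1306 with a fold of at least 1.5, 4905 at an adjusted p under 0.1, 2115 with the replicate block and 1863 to 3936 with a library left out. With upper quartile factors the calls were 1479 higher and 1844 lower, against 1812 and 1423 with TMM. Anti–IL-4Rα against isotype gave 2826, and 1010, 4697 and 1859 under those 3 settings, 1749 without a filter, 453 with the lacrimal covariate, 677 in the fit to the 2 groups and 882 to 4206 with a library left out. Anti–IL-4Rα against PBS gave 707 (434 higher and 273 lower; 354 and 336 with upper quartile factors), and 272, 1952 and 312 under the same 3 settings, 1966 by DESeq2, 2318 by voom, 304 on FPKM, 312 on CPM, 327 without a filter, 84 with the covariate and 82 to 2029 with a library left out. The causes were not tested.

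Signs turned only for anti–IL-4Rα against PBS, in class II genes within 0.09 of 0 on the log2 scale. *H2-Ab1* came to -0.034 on CPM, -0.034 on FPKM, -0.016 with the replicate block, -0.016 with upper quartile factors, -0.11 by voom and -0.16 to 0.076 with a library left out. *Cd74* came to -0.0021 on CPM, -0.0029 on FPKM, -0.092 by voom and -0.12 to 0.11, *H2-DMb1* to -0.012, -0.010, -0.068 and -0.10 to 0.14, *H2-Eb1* to -0.063 by voom and -0.097 to 0.13, and *H2-DMa* to -0.032 by voom and -0.080 to 0.16. Same-numbered samples did not deviate together and share only a number; with the replicate block 2 of the 10 genes were called for isotype against PBS (*Ciita* adjusted p = 0.0584), 0 in the other comparisons, and each library matched its own number best in 4 of 15 cases.

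*Cd80* and *Cd40*, at 41 to 245 counts, carry the largest counting error of the 10 genes.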
